A study of Mus musculus with 20 samples.

Results

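The genotype by dust mite interaction is the difference between 2 responses: the change from saline to house dust mite (HDM) in lungs labelled Alox15 knockout, minus the same change in wild type lungs. It was estimated for every gene that passed a filter on low counts, 16193 of 24054, from all 20 libraries of the series. The animals were female C57Bl6 mice, and each library was made from whole lung. The 4 groups, of 5 biological replicates each, were wild type given saline, wild type given HDM, knockout-labelled given saline, and knockout-labelled given HDM; HDM extract went into the nose every day for 14 days, and the sample titles call the saline PBS. The labels name the genotype only as an ALOX15 knockout, and say nothing of how the allele was made, of littermate controls or of the animals' age. A positive interaction means that HDM moved a gene further up, or less far down, in knockout-labelled lungs than in wild type lungs.

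House dust mite extract carries proteases and microbial products, and repeated inhalation gives an airway inflammation with eosinophils, mucus and alternatively activated macrophages. Alox15 encodes the mouse 12/15-lipoxygenase, which puts oxygen onto arachidonic and linoleic acid and supplies precursors of lipoxins and resolvins, lipids known for their part in the ending of inflammation. In lung it is made by macrophages, eosinophils and epithelium.

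The genotype label was checked against the gene it names. Alox15 stood at 0.825, 11.1, 5.16, 3.87 and 1.98 CPM (the depth-corrected count, scaled between libraries) in the 5 wild type saline lungs and at 12.9, 19.8, 29.8, 22.7 and 7.92 CPM after HDM. The knockout-labelled lungs held 40.8, 39.1, 44.7, 38.4 and 41.2 CPM under saline and 39.4, 43.5, 42.2, 45.5 and 34.98 CPM after HDM. All 10 libraries labelled knockout were therefore above all 10 labelled wild type, which goes against the label. The table gives 1 value per gene, and which exons carried the reads was not analysed here. The log2 change of Alox15 with HDM was 2.01 in wild type (edgeR quasi-likelihood test, adjusted p = 0.00241), the change in knockout-labelled lungs was 0.01 (adjusted p = 0.987), and the interaction of -2.0 ± 0.59 (adjusted p = 0.106) did not pass the threshold. It passed with DESeq2 (adjusted p = 0.0231), with limma voom (0.0368) and without wild type saline 2, the highest of its group (-2.66, 0.0183). Every direction below therefore refers to the libraries as labelled.

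Some libraries stood apart. Total expected counts ran from 12573113 to 23305673 per library. Transcripts of fat were abundant in 5 libraries, with the fat-cell hormone Adipoq at 50 CPM or more: wild type saline 2 and 4, wild type HDM 2 and 4, and knockout-labelled HDM 5. Wild type HDM 2 also held skeletal muscle transcripts at a summed 5212 CPM, against at most 79.3 CPM elsewhere, and wild type saline 4 held T cell transcripts at a summed 739 CPM, against 116 to 169 CPM in the rest of its group. In the saline libraries the level of a gene relative to the mean of all libraries rose with the GC content of its transcript (Spearman's rho over 11068 genes, 0.18 to 0.45), except in wild type saline 1, where rho was -0.40. In the HDM libraries rho was negative throughout, from -0.26 to -0.0034 in wild type and from -0.37 to -0.22 in knockout-labelled lungs.

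At an adjusted p under 0.05, 200 genes had an interaction, or 1.24% of those tested: 162 positive (1.00%) and 38 negative (0.235%). Without adjustment 2583 genes had a p under 0.05, of which 1629 were positive. The interaction of a typical gene had a standard error of 0.20 on the log2 scale, compared with 0.14 for the response within either genotype label, and its median over all genes was 0.03. Of 825 genes with an interaction of at least 2-fold in size, 85 passed. The number of calls depended on single libraries: it was 79 without knockout-labelled HDM 4, 95, 112 and 130 without knockout-labelled saline 2, 3 and 5, 116 without wild type saline 1, 117 without knockout-labelled HDM 3, and 122 without wild type HDM 4. Without the 5 libraries rich in fat transcripts it was 103, of which 72 were among the 200. With upper quartile scaling 142 of 200 calls were positive and 58 negative. DESeq2 called 608 genes, which included all 200, and all 200 kept their direction in each of these fits.

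Most of the positive interactions were rises with HDM that were steeper in, or detected in, knockout-labelled lungs. As background, HDM was called for 30.1% of all genes in wild type lungs (13.6% higher, 16.5% lower) and for 51.9% in knockout-labelled lungs (26.2% higher, 25.7% lower). Of the 162 genes, 72 rose with HDM under both labels, 81 rose in knockout-labelled lungs and were not called in wild type, and 6 fell in wild type and rose in knockout-labelled lungs. The median response of the 162 was 0.25 in wild type and 1.15 in knockout-labelled lungs. Of the 38 negative ones, 17 fell in knockout-labelled lungs and were not called in wild type, 12 fell under both labels, 5 rose in wild type and were not called in knockout-labelled lungs, 3 rose in wild type and fell in knockout-labelled lungs, and 1, Mmp12, rose under both. Their median response was -0.14 in wild type and -1.15 in knockout-labelled lungs. Being called under 1 label and not the other is not itself a test; the interaction is the test of the difference, and these classes describe the genes that passed it.

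**Figure D1:**
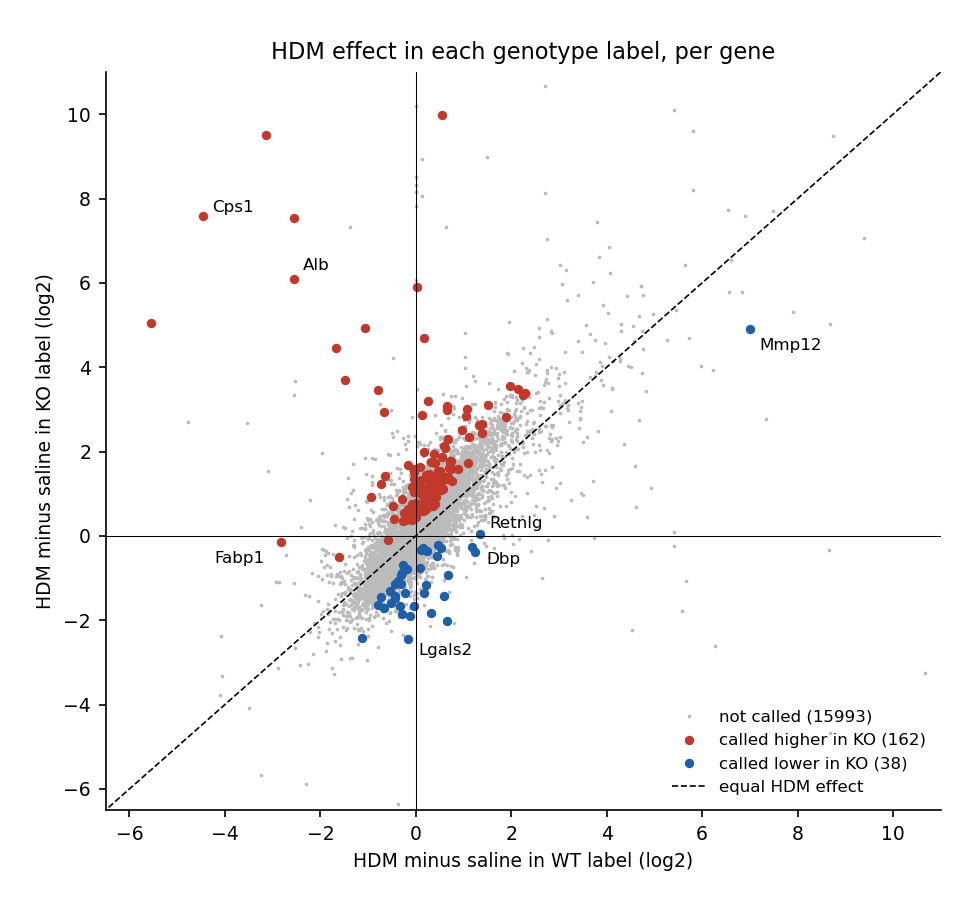
Change from saline to HDM (log2) in wild type lungs on the x axis and in knockout-labelled lungs on the y axis, 1 point per gene; red and blue points are the 162 positive and 38 negative interactions, and the dashed line marks equal responses. The red points lie above the line and the blue points below it, and Mmp12 is the blue point far to the right; 5 genes lie outside the axes.

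Read the other way, the interaction is a genotype difference that depends on HDM. Over all genes, that difference was called for 0.908% under saline (0.593% higher in knockout-labelled lungs, 0.315% lower) and for 6.67% under HDM (4.79% higher, 1.88% lower). For 147 of the 162 positive genes and 29 of the 38 negative genes the larger genotype difference was the one under HDM. The median difference of the positive genes, knockout-labelled minus wild type, was -0.15 under saline and 0.65 under HDM, and that of the negative genes was 0.37 under saline and -0.62 under HDM. In 123 of the 162, all 5 knockout-labelled HDM libraries lay above each of the other 15, and in 13 of the 38 they lay below each of the other 15. The same counts are not given here for all tested genes. As the contrast that picked these genes used the same libraries, such separation is partly built in. The genes whose larger genotype difference was the one under saline included Pttg1, Slfn8, Npas2, Dbp and Rhd.

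**Figure D2:**
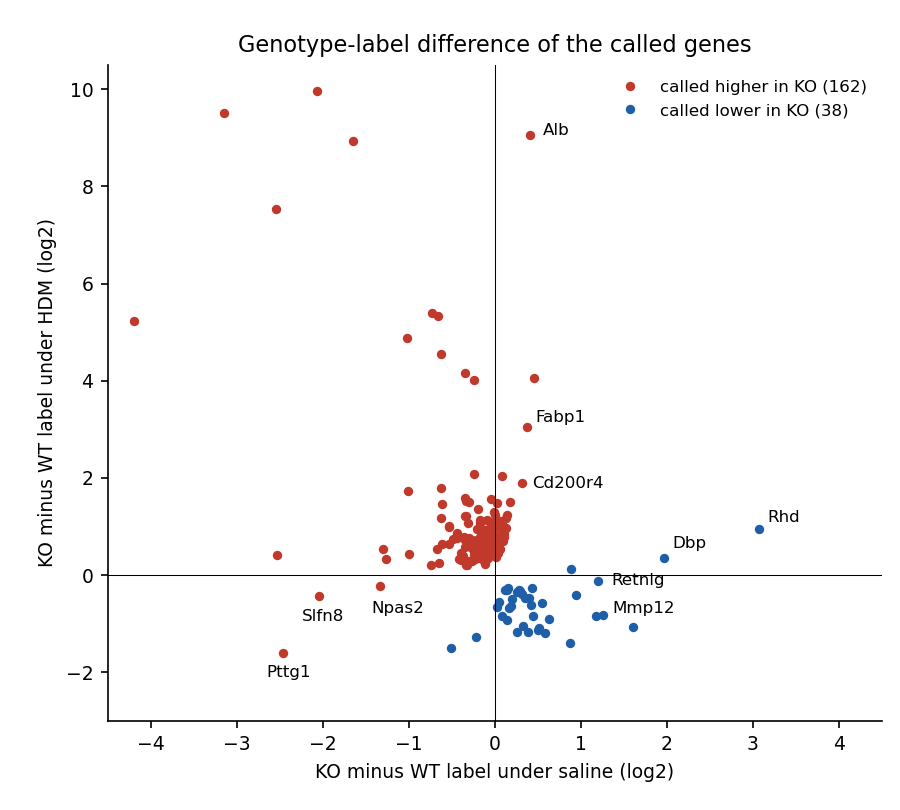
Knockout-labelled minus wild type (log2) under saline on the x axis and under HDM on the y axis, for the 200 genes with an interaction, 1 point per gene. Most red points lie near 0 under saline and above 0 under HDM, while Rhd, Dbp, Pttg1 and Slfn8 lie far from 0 on the saline axis.

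The interactions largest in size among the called genes belonged to genes known from liver. Alb, which encodes serum albumin, stood at 20.1, 56.2, 76.4, 63.3 and 53.9 CPM in the 5 knockout-labelled HDM lungs. In wild type HDM lungs it was at 0, 0.256, 0, 0 and 0.198 CPM. Saline lungs held 0.363 to 0.825 CPM in wild type and 0.622 to 1.10 CPM in the knockout-labelled group. All 5 knockout-labelled HDM libraries were far above the other 15. The interaction of Alb was 8.66 ± 0.71 (adjusted p = 3.65e-06), the smallest p-value of all genes. In counts summed over each group Alb had 57 in wild type saline, 8 in wild type HDM, 86 in knockout-labelled saline and 5247 in knockout-labelled HDM.

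Other hepatocyte genes had the same pattern at lower levels. Of a list of 19 liver genes, 18 were measured and 5 were called, all positive (Alb, Mup3, Fga, Apoa2 and Hpx), or 27.8% against 1.00% of all genes. In 12 of the 18, all 5 knockout-labelled HDM libraries lay above each of the other 15, a count not given here for all tested genes. Mup3, a major urinary protein, had an interaction of 9.41 ± 1.91 (adjusted p = 0.0277), Fga, the fibrinogen alpha chain, 5.18 ± 0.87 (adjusted p = 0.00809), Apoa2, an apolipoprotein of high-density lipoprotein, 4.51 ± 0.80 (adjusted p = 0.00976), and Hpx, the haem carrier hemopexin, 1.95 ± 0.47 (adjusted p = 0.0439). Mup genes are near-identical copies, so the count of any 1 of them is uncertain. Mup3 also had 0 counts in all knockout-labelled saline libraries, so the size of its interaction has no usable estimate. The call of Mup3 was lost without wild type saline 4 (8.42, adjusted p = 0.108), and also without wild type saline 2 or knockout-labelled HDM 4.

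Several liver genes were absent from all but 1 group, a pattern for which the interaction on the log scale has no usable estimate. Mup7 had 730 counts over the 5 knockout-labelled HDM libraries, Fgb 229 and Cyp3a11 201. Each had 0 counts in all other 15 libraries. With the wild type HDM group put at 3 counts, they were 212-fold, 66.6-fold and 58.5-fold higher. The lower confidence limits of the ratio of knockout-labelled HDM to wild type HDM were 114, 35.5 and 31.1. These limits rest on counts summed over each group and leave out the spread between libraries, so they are no test between animals. None of the 3 was called, with an adjusted p of 1.00 each. The median interaction of the 18 genes was 6.33, next to 0.03 over all genes, and 6 of the 18 had a group at 0. Recomputed for all 18 from counts summed over each group, with sums under 3 put at 3, the median was 5.70. In 4 members, Serpina1a, Fgg, Ahsg and F2, 4 of the 5 knockout-labelled HDM libraries lay above all others, and in Tat and Cyp2e1 only 1 did. Cyp2e1, which is also made in lung and fat, had 5993 summed counts in wild type HDM and 6603 in knockout-labelled HDM.

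Beyond the list, 3 further genes known from hepatocytes had large interactions: Cps1, the first enzyme of the urea cycle (12.03 ± 1.42 (adjusted p = 0.00109)), Pzp, a protease inhibitor of the alpha-2-macroglobulin family (4.26 ± 0.59 (adjusted p = 0.00145)), and Gc, the vitamin D binding protein (3.59 ± 0.44 (adjusted p = 5.47e-04)). Pzp stood at 2.35, 6.97, 8.27, 9.10 and 7.38 CPM in knockout-labelled HDM lungs and at 0.0777 to 0.827 CPM in wild type HDM lungs. Cps1 had 0 counts in all wild type HDM libraries and 3 summed counts in knockout-labelled saline, so the size of its interaction has no usable estimate. Gc was chosen after its values were seen. Knockout-labelled HDM 1 was the lowest of its group for Alb, Pzp, Cps1 and Mup3 alike. Whether the RNA came from liver tissue taken with the lung or from cells of the lung was not tested, and in bulk libraries fewer cells of a type cannot be told apart from less RNA per cell, here and in all that follows.

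The positive genes with the next largest interactions included receptors and enzymes known from macrophages and other myeloid cells. Emr1, whose product F4/80 is the classic macrophage surface antigen, stood at 118, 136, 161, 204 and 104 CPM in knockout-labelled HDM lungs and at 54.8, 55.4, 46.2, 40.8 and 47.9 CPM in wild type HDM lungs. Under saline it was at 23.6 to 35.9 CPM and 26.6 to 34.5 CPM. All 5 knockout-labelled HDM libraries were above all others, and the groups under saline overlapped. Emr1 rose under both labels, by 0.68 in wild type and 2.29 in knockout-labelled lungs, and its interaction was 1.61 ± 0.22 (adjusted p = 0.00109).

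Fcgr1, the high-affinity IgG receptor CD64, had 12.01, 17.4, 17.1, 30.6 and 10.6 CPM in knockout-labelled HDM lungs and 8.09, 8.25, 5.83, 3.72 and 5.05 CPM in wild type HDM lungs, with 4.40 to 6.73 CPM and 3.93 to 4.80 CPM in the wild type and knockout-labelled saline groups. It rose in knockout-labelled lungs (1.98), its change in wild type was 0.17 (adjusted p = 0.637), and the interaction was 1.81 ± 0.35 (adjusted p = 0.0162). Fpr2, a chemoattractant receptor that binds formyl peptides, serum amyloid A and lipoxin A4, had 24.98, 48.6, 34.9, 32.97 and 23.6 CPM in knockout-labelled HDM lungs. Wild type HDM lungs had 10.6, 7.68, 5.98, 4.14 and 10.7 CPM of Fpr2, and no saline library of either label was above 7.74 CPM. Its interaction was 2.31 ± 0.42 (adjusted p = 0.0108), and it was the only gene called among 20 measured genes of lipid mediator enzymes and receptors, whose median was 0.29. For Fcgr1 and Fpr2 too, the 5 knockout-labelled HDM libraries lay above all others.

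Of the other surface receptors, Clec12a, an inhibitory lectin of myeloid cells, had an interaction of 1.46 ± 0.29 (adjusted p = 0.0182). Cd200r4, an activating relative of the CD200 receptor, reached 27.6 to 39.4 CPM in knockout-labelled HDM lungs and 6.52 to 13.9 CPM in wild type HDM lungs (1.58 ± 0.34 (adjusted p = 0.0272)). Gpr141, an orphan receptor, fell with HDM in wild type by 0.95 and rose in knockout-labelled lungs by 0.91 (1.86 ± 0.35 (adjusted p = 0.0132)). Klra2, a lectin-like receptor of the Ly49 family, had 1.55 ± 0.35 (adjusted p = 0.0350). Cubn, an endocytic receptor best known from kidney, had 1.55 ± 0.33 (adjusted p = 0.0257). Aoah, the enzyme that removes fatty acids from bacterial lipopolysaccharide, rose under both labels, by 1.08 and 3.01, and its knockout-labelled HDM libraries at 12.9 to 27.8 CPM were all above the wild type HDM libraries at 4.55 to 7.38 CPM (1.93 ± 0.31 (adjusted p = 0.00704)). The calls of Emr1, Fcgr1, Fpr2, Clec12a, Gpr141 and Aoah held whichever library was left out, and those of Klra2, Cd200r4 and Cubn did not, each being lost among others without knockout-labelled HDM 4, at adjusted p-values of 0.0796, 0.0642 and 0.0642.

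As a list, monocyte and interstitial macrophage genes had a median interaction of 0.92, and 16 of 17 were positive, but 1 (Fcgr1) was called. Summed, these genes ran from 1872 to 3590 CPM in knockout-labelled HDM lungs and from 1159 to 1774 CPM in wild type HDM lungs, with 775 to 1292 CPM and 801 to 1045 CPM in the saline groups. Knockout-labelled HDM 4 was highest in this sum, in Fcgr1, in Emr1 and in Gbp10. Alveolar macrophage genes had a median of -0.09 (-0.23 to 0.10 over the alternatives), and 7 of 16 were positive. The 2 that were called in that list, Fabp1 and Cd200r4, had interactions of different shape. Fabp1, a fatty acid binding protein that is also abundant in liver, fell in wild type lungs from 2.92, 1.35, 2.82, 3.13 and 3.68 CPM to 0.556, 0.512, 0.0777, 0.207 and 0.545 CPM, and its levels in knockout-labelled lungs were 3.11, 3.62, 3.87, 3.74 and 3.69 CPM and 2.03, 3.85, 4.18, 3.80 and 2.43 CPM. The wild type HDM libraries were thus the only low ones, and the interaction of 2.68 ± 0.46 (adjusted p = 0.00809) was a fall in wild type (-2.82) beside a change of -0.15 (adjusted p = 0.700) in knockout-labelled lungs.

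Interferon-inducible guanylate-binding proteins, which act against intracellular microbes, and schlafens were also among the named rises. Gbp10 stood at 4.22, 9.89, 8.998, 18.6 and 8.89 CPM in knockout-labelled HDM lungs, 1.98, 4.48, 3.26, 1.65 and 3.86 CPM in wild type HDM lungs, 1.44, 1.32, 1.89, 1.52 and 0.729 CPM in knockout-labelled saline lungs and 2.86, 2.33, 2.39, 4.33 and 2.03 CPM in wild type saline lungs. Its knockout-labelled libraries went from the lowest group under saline to mostly the highest under HDM, where replicate 1 overlapped wild type (2.74 ± 0.50 (adjusted p = 0.0108)). Gbp3 had 47.9 to 98.7 CPM in knockout-labelled HDM lungs and 31.2 to 49.9 CPM in wild type HDM lungs (1.07 ± 0.23 (adjusted p = 0.0277)). Slfn8 was lower in knockout-labelled than wild type lungs under saline, at 4.62 to 7.80 against 15.3 to 43.1 CPM, and the groups overlapped under HDM, at 15.01 to 27.3 against 18.9 to 29.9 CPM (1.61 ± 0.34 (adjusted p = 0.0263)). Gbp genes are close copies in 1 cluster and share reads, so the split between them is uncertain. In the list of 25 interferon response genes, 22 were positive with a median of 0.45 (0.30 without wild type saline 1), and Gbp3 was the only one called. Without knockout-labelled HDM 4 the calls of Gbp3 and Slfn8 were lost (0.86 and 1.38, adjusted p = 0.0641 and 0.0642).

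**Figure D3:**
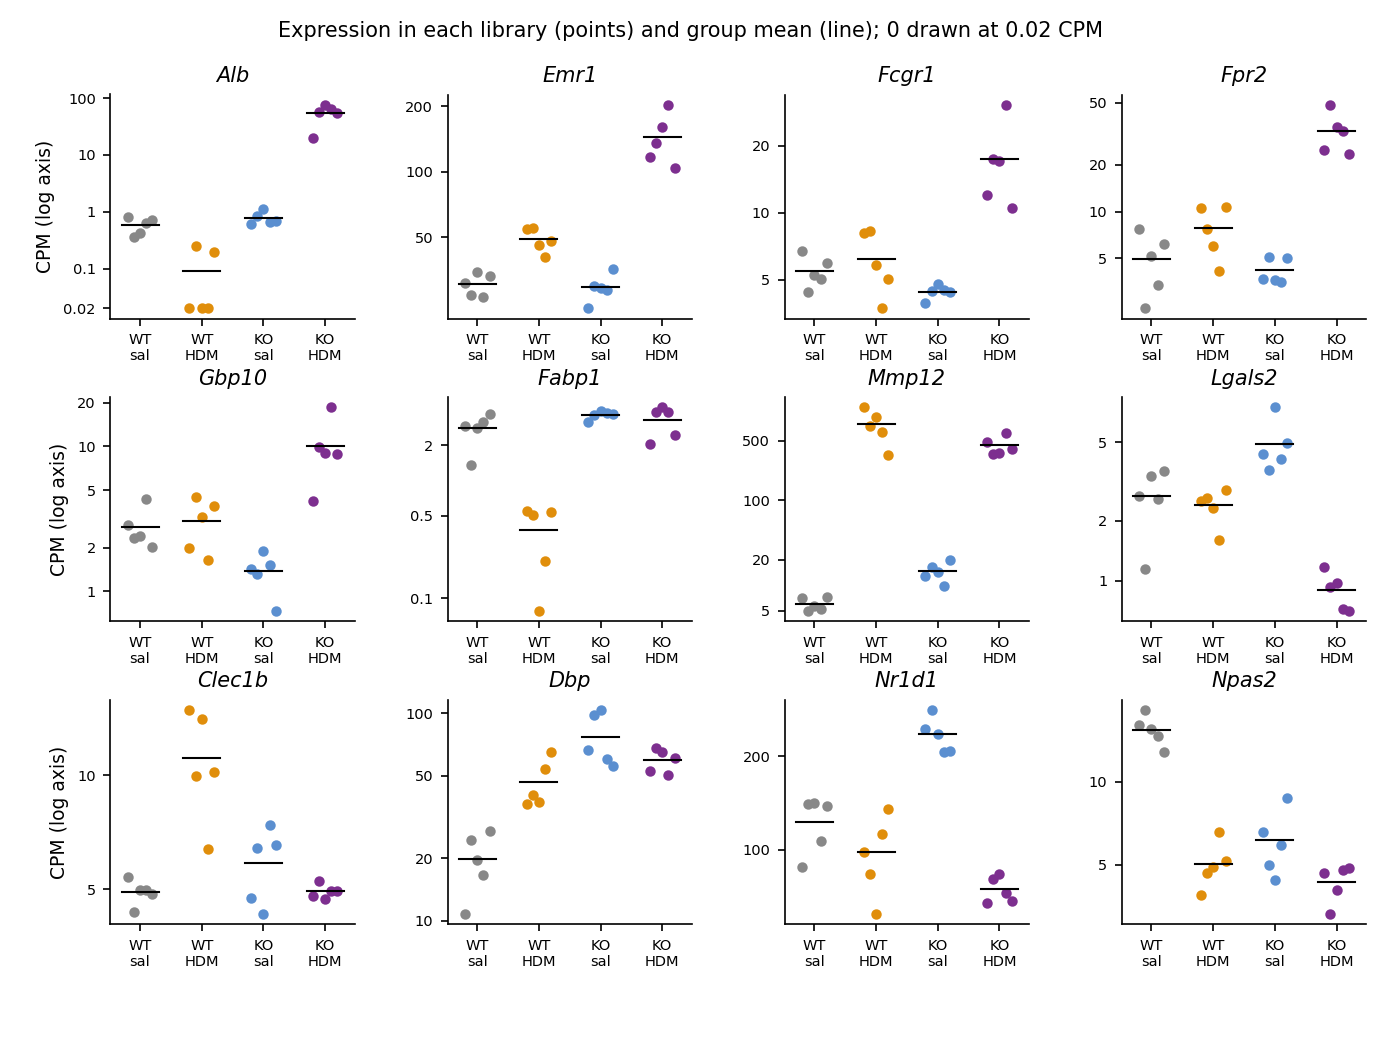
CPM on a log axis in each library (points, replicates 1 to 5 from left to right) with the group mean (line) for 12 genes with an interaction; values of 0 are drawn at 0.02 CPM. For Alb, Emr1, Fcgr1 and Fpr2 the 5 knockout-labelled HDM points lie above all others, while for Fabp1 the wild type HDM points and for Nr1d1 the knockout-labelled saline points stand apart.

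Because interferon-inducible genes respond through the interferon-stimulated response element (ISRE), its core was looked for in promoters. RefSeq promoters (mouse build GRCm38.p6, from 250 bases before to 50 after each start site) were matched for 12663 of 16193 tested genes, 129 of the 162 positive and 36 of the 38 negative. The core (TTTC, any 2 bases, TTTC), on either strand, was found for 13 of the 129 positive genes (10.1%), 0 of the 36 negative genes and 3.86% of all tested genes with a promoter. The promoters also differed in composition: the median GC content was 55.2% for the positive, 57.8% for the negative and 59.7% for all. Gbp10 and Gbp6, which were called too, were not among the 13, and whether a promoter was matched for them is not given here. The 13 genes with a match included Gbp3, Slfn8, Aoah, Ctss, Cybb and Mnda. The 250 bases upstream of 4 of them are printed with each match in capitals, in the direction of transcription, to show where the element lies: Gbp3 at chr3:142559794-142560043 on the plus strand has 2 overlapping matches of which the first starts 45 bases upstream, Slfn8 at chr11:83020811-83021060 and Mnda at chr1:173913047-173913296, both on the minus strand, have 1 match each, at 48 and 37 bases, and Cybb at chrX:9469325-9469574 on the minus strand has 3 matches, the first at 168 bases.
Gbp3: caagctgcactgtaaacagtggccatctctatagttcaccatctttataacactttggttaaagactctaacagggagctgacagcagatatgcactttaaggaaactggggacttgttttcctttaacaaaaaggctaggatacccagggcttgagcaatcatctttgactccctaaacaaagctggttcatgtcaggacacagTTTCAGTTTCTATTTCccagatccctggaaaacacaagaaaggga
Slfn8: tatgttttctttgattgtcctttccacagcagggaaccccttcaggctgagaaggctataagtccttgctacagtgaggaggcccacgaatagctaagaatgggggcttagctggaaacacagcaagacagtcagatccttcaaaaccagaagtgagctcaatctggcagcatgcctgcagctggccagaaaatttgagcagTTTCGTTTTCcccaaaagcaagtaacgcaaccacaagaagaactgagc
Cybb: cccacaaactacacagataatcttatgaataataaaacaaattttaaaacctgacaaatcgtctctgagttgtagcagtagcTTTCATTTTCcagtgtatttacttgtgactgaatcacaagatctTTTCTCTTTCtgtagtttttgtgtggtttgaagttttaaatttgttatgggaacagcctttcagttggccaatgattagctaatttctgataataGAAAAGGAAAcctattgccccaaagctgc
Mnda: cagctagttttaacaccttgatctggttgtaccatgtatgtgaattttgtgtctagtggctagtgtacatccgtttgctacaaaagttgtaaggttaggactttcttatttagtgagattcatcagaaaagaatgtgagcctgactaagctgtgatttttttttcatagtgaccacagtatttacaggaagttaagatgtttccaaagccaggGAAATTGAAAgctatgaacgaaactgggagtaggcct
A match is a description of the letters and not a measured binding site. Cybb, the catalytic subunit of the phagocyte oxidase, had 582 to 969 CPM in knockout-labelled HDM lungs and 292 to 502 CPM in wild type HDM lungs, with an interaction of 1.04 ± 0.22 (adjusted p = 0.0272). Mnda, an interferon-inducible nuclear protein of myeloid cells, had 21.4 to 29.2 against 8.58 to 16.5 CPM (1.31 ± 0.25 (adjusted p = 0.0151)). Ctss, a lysosomal protease that trims the MHC class II invariant chain, rose under both labels, by 2.28 and 3.39 (1.10 ± 0.22 (adjusted p = 0.0197)). These 3 genes, and the 4 genes whose promoters are printed, were chosen after their values were seen.

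Ube2j1, the membrane-bound ubiquitin-conjugating enzyme of endoplasmic reticulum quality control, had the second smallest p-value of all genes, with an interaction of modest size. It stood at 117, 105, 109.8, 121 and 118 CPM in knockout-labelled HDM lungs and at 74.7, 69.5, 65.1, 70.95 and 67.8 CPM in wild type HDM lungs, and the saline groups lay at 54.3 to 64.03 and 55.05 to 58.1 CPM. Its interaction was 0.78 ± 0.08 (adjusted p = 8.13e-05). Sec24a, a coat protein of vesicles that leave the endoplasmic reticulum, had 0.57 ± 0.09 (adjusted p = 0.00804), and Tmx1, a disulfide isomerase of its membrane, 0.70 ± 0.11 (adjusted p = 0.00767). Edem1, which marks misfolded glycoproteins for degradation, rose under both labels, by 1.09 and 1.73 (0.64 ± 0.15 (adjusted p = 0.0439)), and was called in 4 of 20 fits made without 1 library each. In the list of 28 genes of the unfolded protein response and export from the endoplasmic reticulum, Edem1 was the only call and the median was 0.12, near that of all genes. Plasma cells are rich in such transcripts, and their 12 genes had a median interaction of 0.86 with 10 positive and 0 called; their part in the values of Ube2j1 and Edem1 was not tested. Ube2j1, Sec24a and Tmx1 were chosen after their values were seen.

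Among called genes at a mean log2 CPM of 1 or more, the largest negative interactions were those of Lgals2, Mmp12 and Map3k6. Lgals2, the lectin galectin-2, fell in knockout-labelled lungs from 4.36, 3.62, 7.48, 4.09 and 4.92 CPM under saline to 1.17, 0.926, 0.973, 0.717 and 0.701 CPM under HDM. Wild type lungs had 2.67, 1.14, 3.35, 2.58 and 3.58 CPM and 2.53, 2.62, 2.33, 1.60 and 2.87 CPM, groups that overlapped. The interaction of Lgals2 was -2.28 ± 0.38 (adjusted p = 0.00809), and it was called whichever library was left out. Map3k6, a kinase of stress signalling, fell in knockout-labelled lungs by 1.67 (-1.63 ± 0.35 (adjusted p = 0.0272)).

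Mmp12, the macrophage elastase, was among the genes that HDM raised most. Wild type lungs went from 7.17, 4.97, 5.80, 5.25 and 7.35 CPM to 1226, 737, 948, 636 and 342 CPM, and knockout-labelled lungs from 12.97, 16.3, 14.3, 9.91 and 19.6 CPM to 486, 351, 359, 605 and 397 CPM. Every knockout-labelled saline library lay above every wild type saline library, while the HDM groups overlapped. The rise was 6.99 in wild type and 4.91 in knockout-labelled lungs, and their difference, -2.08 ± 0.37 (adjusted p = 0.0103), combined a higher saline level (1.26, adjusted p = 0.0279) with an HDM difference of -0.82 (adjusted p = 0.0585). It was not called without the 5 libraries rich in fat transcripts, at a similar size (-2.01, adjusted p = 0.0812). Retnlg, a resistin-like protein of neutrophils, had a similar shape at low levels: 4.70, 3.78, 4.15, 3.54 and 3.72 CPM in wild type saline lungs and 12.2, 11.6, 12.7, 7.14 and 7.08 CPM in wild type HDM lungs, beside 7.75 to 11.6 and 8.52 to 10.1 CPM in the knockout-labelled groups. Wild type rose to the level that knockout-labelled lungs already had under saline (-1.31 ± 0.23 (adjusted p = 0.00835)). Retnlg was the only call among 13 neutrophil genes, of which 10 were positive with a median of 0.31, or 0.15 without knockout-labelled HDM 4.

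Genes of the circadian clock, the feedback loop of transcription factors that keeps daily time, held 3 calls among 19 measured, or 15.8% against 1.24% of all genes tested. Dbp, an output factor of the loop, stood at 10.8, 24.6, 19.6, 16.6 and 27.2 CPM in wild type saline lungs and 36.5, 40.4, 37.1, 53.6 and 64.9 CPM in wild type HDM lungs. Knockout-labelled lungs had 66.8, 98.4, 104, 60.3 and 55.8 CPM and 52.6, 67.9, 65.4, 50.2 and 61.2 CPM. All wild type saline libraries were below all others, and the interaction was -1.61 ± 0.32 (adjusted p = 0.0195). Nr1d1, the repressor REV-ERB alpha, had 245, 282, 236, 207 and 208 CPM in knockout-labelled saline lungs, above every other library, and 67.6, 80.8, 83.8, 72.3 and 68.4 CPM in knockout-labelled HDM lungs. Wild type Nr1d1 was 87.9, 140.1, 142, 107 and 139 CPM and 98.3, 83.7, 62.2, 113 and 136 CPM, with overlap (-1.34 ± 0.24 (adjusted p = 0.00976)).

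Npas2, an activator of the loop that REV-ERB alpha represses, was positive: it was at 16.1, 18.2, 15.6, 14.6 and 12.8 CPM in wild type saline lungs and 3.89, 4.67, 4.90, 6.57 and 5.15 CPM in wild type HDM lungs, beside 6.56, 4.98, 4.40, 5.91 and 8.75 CPM and 4.64, 3.31, 4.04, 4.80 and 4.85 CPM in knockout-labelled lungs. The wild type saline libraries alone were high, and Npas2 fell under both labels, by 1.62 and 0.50 (1.12 ± 0.25 (adjusted p = 0.0284)). For Dbp, Nr1d1 and Npas2 the genotype difference under saline passed the threshold (1.96, 0.94 and -1.34), and that under HDM did not (0.35, -0.40 and -0.22). The clock list as a whole had a median of -0.28 with 8 positive, or -0.18 without knockout-labelled saline 2. The hour at which lungs were taken is not in the labels used here, so it cannot be told apart from the groups. The E-box CACGTG, through which the clock activators bind, was found in at least 1 promoter of 8.53% of the positive genes with a promoter, 8.33% of the negative ones and 10.8% of all. Dbp, Nr1d1 and Npas2 were not among the genes with a match, and whether a promoter was matched for each is not given here.

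Platelet and red cell genes lay on the negative side. Clec1b, the platelet receptor for podoplanin, rose in wild type lungs from 5.39, 4.35, 4.998, 4.97 and 4.85 CPM to 14.9, 9.98, 14.1, 6.41 and 10.2 CPM. It was at 4.74, 6.43, 4.31, 7.39 and 6.56 CPM and 4.80, 5.26, 4.72, 4.96 and 4.96 CPM in knockout-labelled lungs, where the groups overlapped (-1.43 ± 0.26 (adjusted p = 0.0108)). P2rx1, an ATP-gated channel of platelets, rose in wild type (0.67) and fell in knockout-labelled lungs (-0.92, interaction -1.59 ± 0.28 (adjusted p = 0.00872)). The 13 platelet genes had a median of -0.60 with 1 positive and 1 call, Clec1b. Most of the list fell with HDM under both labels, unlike Clec1b in wild type. In wild type 10 were called lower and 2 higher (median change -0.99), where 16.5% of all genes were called lower. In knockout-labelled lungs 11 were called lower and 1 higher (-1.44), where 25.7% of all genes were called lower. Red cell genes were all negative, 17 of 17, with a median of -0.65 and 1 call, Rhd, which carries the Rh blood group; Rhd was at 1.19 to 3.19 CPM in knockout-labelled saline lungs and at no more than 0.827 CPM elsewhere (-2.12 ± 0.51 (adjusted p = 0.0438)), and was called in 4 of 20 fits made without 1 library each. Summed red cell transcripts ran from 16297 to 34446 CPM in knockout-labelled saline lungs, from 4320 to 10682 CPM in wild type saline lungs, from 5019 to 8383 CPM in knockout-labelled HDM lungs and from 2083 to 3588 CPM in wild type HDM lungs. Without knockout-labelled saline 2, the highest of these libraries, the median of the red cell list was -0.37. How much of this is blood left in the lungs was not tested.

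The endothelial and mesothelial lists held 1 call each, both negative. Nos3, the nitric oxide synthase of endothelium, fell in knockout-labelled lungs by 0.75, with 10.8 to 15.5 CPM against 19.5 to 23.8 CPM under saline (-0.84 ± 0.18 (adjusted p = 0.0263)), and 19 of 21 endothelial genes were negative with a median of -0.40, or -0.24 without wild type HDM 5. Rspo1, a secreted enhancer of Wnt signalling found in mesothelium, fell likewise, to 7.39 to 10.3 from 16.9 to 25.4 CPM (-1.12 ± 0.23 (adjusted p = 0.0203)), and all 10 mesothelial genes were negative with a median of -0.95. Igfbp6, a binding protein for insulin-like growth factor 2 that is in neither list, fell under both labels, by 1.13 in wild type and 2.41 in knockout-labelled lungs (-1.28 ± 0.27 (adjusted p = 0.0257)). Summed mesothelial transcripts were 153 to 246 CPM in knockout-labelled HDM lungs, below the 313 to 575 CPM of the knockout-labelled saline group, whereas the wild type groups overlapped at 222 to 284 CPM and 247 to 405 CPM.

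The remaining named falls were of mixed kinds. Atp6v0a4, a membrane subunit of the proton pump of acid-secreting cells, had the smallest p-value of the negative genes: it lay at 3.63, 3.75, 3.94, 3.86 and 4.53 CPM in knockout-labelled HDM lungs, below every other library, with 7.52 to 9.98 CPM in knockout-labelled saline lungs, 5.52 to 8.88 CPM in wild type saline lungs and 7.28 to 9.48 CPM in wild type HDM lungs (-1.38 ± 0.18 (adjusted p = 0.00109)). Myrip, which links melanosomes and secretory granules to myosin, and Klhl29, a kelch-like protein, also had all 5 knockout-labelled HDM libraries below the rest (-1.56 and -1.52, adjusted p = 0.0182 and 0.00809). Pxdc1 (-1.07, adjusted p = 0.0281) and Fam57b, a membrane protein of ceramide synthesis (-1.04, adjusted p = 0.0404), fell under both labels and further in knockout-labelled lungs. Gt(ROSA)26Sor, the non-coding transcript of the Rosa26 locus at which transgenes are often placed, was the remaining named rise, at 8.33 to 13.1 CPM in knockout-labelled HDM lungs and 3.88 to 7.46 CPM in wild type HDM lungs (1.53 ± 0.34 (adjusted p = 0.0285)).

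In 11 genes HDM was called in opposite directions under the 2 labels. Alb and Cps1, described above, fell in wild type at few counts (57 to 8 and 13 to 0, summed) and rose in knockout-labelled lungs. Gpr141, also described above, fell in wild type and rose in knockout-labelled lungs. So did Pdgfrl, a receptor-like protein related to platelet-derived growth factor receptors (-0.47 and 0.71). Iqgap2, a scaffold of the cytoskeleton (-0.28 and 0.34), and Pttg1, the securin, a regulator of sister chromatid separation (-0.47 and 0.39), did so too. P2rx1, Lpar2, a receptor for lysophosphatidic acid (0.24 and -0.36), and Wdr92, a cochaperone in the assembly of ciliary dynein (0.44 and -0.47), did the reverse. Galnt9, a glycosyltransferase that starts mucin-type sugars, and Tgoln2, a protein of the trans-Golgi network, were called in opposite directions while their interaction missed the threshold (1.34 and -0.58, adjusted p = 0.0633 for each). Pttg1 was lower in all knockout-labelled libraries than in all wild type ones: 25.3 to 29.9 and 15.9 to 22.6 CPM in wild type lungs under saline and HDM, and 4.05 to 6.90 and 5.28 to 7.28 CPM in knockout-labelled lungs (0.86 ± 0.19 (adjusted p = 0.0281) for the interaction).

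Lists of the textbook response to HDM held no interaction at this threshold. Of 36 lists of cell types and pathways, 24 had no member called, and of 530 distinct list genes measured 19 were called (3.58%, beside 1.24% of all genes tested). No gene was called among 14 type 2 cytokines, chemokines and receptors (median 0.09, 7 positive), 16 genes of alternative macrophage activation (0.10, 8 positive), 7 eosinophil genes (-0.56, 1 positive), 14 goblet cell genes (0.86, 12 positive), or 16 genes of ferroptosis and glutathione (-0.11, 7 positive). Without the libraries rich in fat transcripts the medians were -0.29 for the type 2, -0.28 for the alternative activation, -1.12 for the eosinophil and -0.52 for the goblet list, so all but the eosinophil one changed sign. T cell genes were positive in 21 of 21 with a median of 1.26, and none was called; without wild type saline 4 alone the median was 0.11. Cell cycle genes were positive in 25 of 26 (median 0.78), extracellular matrix genes in 19 of 20 (0.65) and MHC class II genes in 10 of 10 (0.35), again with none called, while the 14 genes of alveolar type 1 cells and the 12 of type 2 cells were all negative (-0.29 and -0.37). Without wild type saline 4 the cell cycle median was 0.47 and that of MHC class II 0.13, and without wild type HDM 5 the medians of type 1 and type 2 cells were -0.14 and -0.16. Members of a list share cells and libraries, so a common sign is a description and not a count of independent results. A miss is not evidence of equal responses: in simulated data, which held no trends shared between genes, the same test found 60% of 2-fold and 93% of 4-fold interactions.

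**Figure D4:**
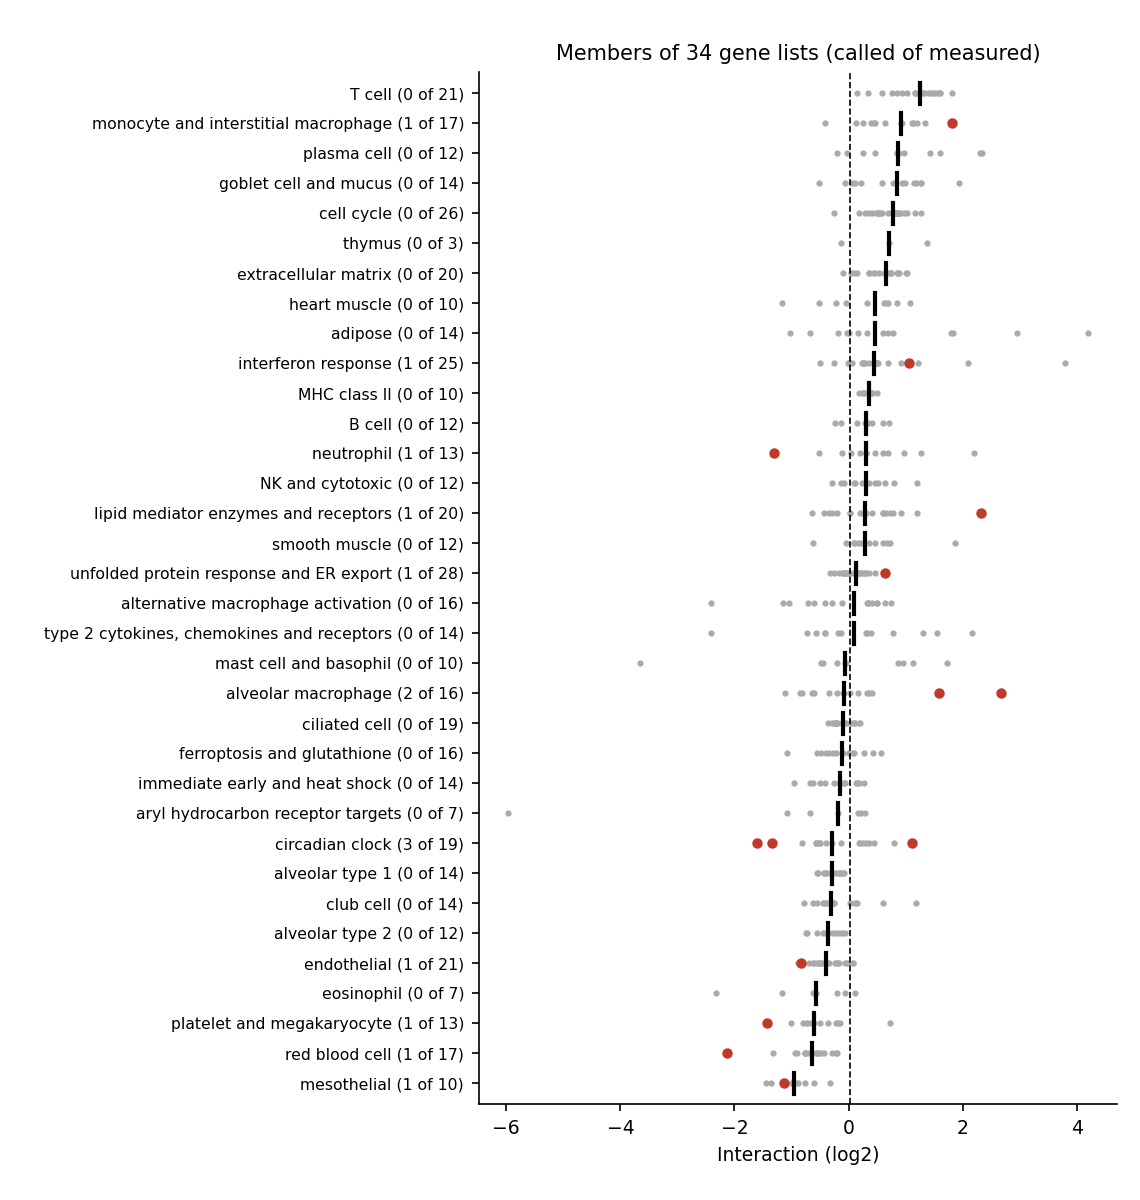
Interaction (log2, x axis) of each measured member of 34 lists, with members called in red, members not called in grey, the list median as a black bar and the median of all genes as a dashed line; the liver and skeletal muscle lists, at medians of 6.33 and -7.35, lie beyond the axis and are left out. Mesothelial, red cell and platelet lists lie at the negative end and T cell and monocyte lists at the positive end, with few red points in any list.

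The size of the interaction followed the base composition of the transcript. Genes of 40% GC or less had a median interaction of 0.33 and those above 60% a median of -0.18, and Spearman's rho over 16018 genes was -0.37. The called genes were spread accordingly: the median GC content was 43.6% for the positive and 54.0% for the negative genes, against 49.7% for all. Without wild type saline 1, the library whose GC trend ran against the other saline libraries, rho was -0.24 and the end medians were 0.17 and -0.15. With an offset that removes the GC trend from each library, an alternative chosen after seeing the data, 175 genes were called (139 positive and 36 negative) and 132 of the 200 were among them. Of the named genes, 40 of the 43 called kept their call with the offset; Fam57b, Rhd and Edem1 did not. What gave the trend was not tested.

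**Figure D5:**
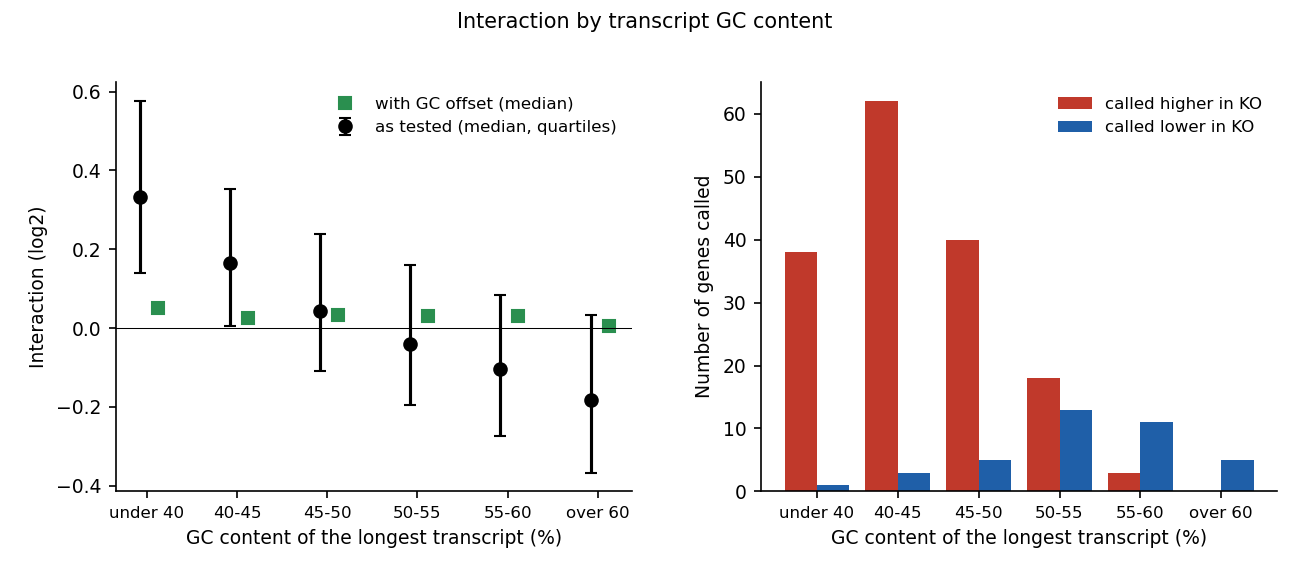
Left, interaction (log2) by GC content of the transcript, as tested (median with quartiles) and as the median with a GC offset; right, the number of genes called in each GC class. The medians fall from 0.33 to -0.18 as tested and lie between 0.00 and 0.05 with the offset, and the positive calls lie mostly at 50% GC or less.

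Chromosome 11, which carries Alox15, held 14 of the 199 called genes with a known chromosome (7.04%), compared with 8.14% of all tested genes. Of the 14, 7 were among the 162 positive genes and 7 among the 38 negative genes, so the share was higher on the negative side. Slfn8, Pttg1, Nr1d1, P2rx1 and Wdr92 are among the 14. Why the directions differed in this share was not tested.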

How the data were processed

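RNA of whole lung was measured by RNA-seq in 20 libraries, 5 in each of 4 groups taken from the sample titles and labels. Per the labels' protocols, frozen lungs were extracted and strand-specific libraries were made with oligo-dT selection and dUTP. The same text also mentions ribosomal RNA depletion. The authors used Bowtie2 2.1.0 and RSEM 1.2.15, per the submitters' processing notes. Those notes give the build as hg38, which is human, while the gene symbols in the table are those of mouse. The authors deposited RSEM expected counts per gene and library, not normalized. RSEM shares reads among near-identical genes, so counts of families such as Mup and Gbp are uncertain.

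Here the expected counts were rounded to whole numbers, genes were kept by edgeR's filterByExpr, and libraries were scaled by TMM. All 4 groups entered 1 quasi-likelihood fit (edgeR 4.0.16, limma 3.58.1, R 4.3.3; robust, 16 residual degrees of freedom) with no covariate. A gene was called at a Benjamini-Hochberg adjusted p under 0.05 over all tested genes. Values after ± are standard errors on the log2 scale. CPM uses the scaled library sizes. In simulated data with 200 changed genes the test found 60% of 2-fold and 93% of 4-fold interactions, with 3.77% false among 159 calls. The changed genes were drawn from those at a mean of 1 CPM or more. Counts were drawn independently for each gene, so trends shared by the genes of a library were not simulated. These shares may therefore not carry over to the real data. DESeq2 1.42.0 and limma voom were alternatives. GC content came from the longest GENCODE M21 transcript of each symbol, and 98.9% of tested genes had a value. Promoters came from RefSeq.

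Named genes were Alox15, the 15 largest positive and 15 largest negative called interactions at a mean log2 CPM of 1 or more, up to 3 called members of each list, and genes that HDM changed in opposite directions under the labels. Others are marked as chosen after their values were seen. Members and lists were chosen with earlier results of these data known. The 4 groups share libraries between contrasts, so effects within labels are not independent of the interaction. The labels call the replicates biological and name no animal; p-values measure the spread between these libraries.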

Additional observations from a re-analysis of the deposited data

Results flagged for a closer look

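The response to HDM differed between the genotype labels, by the test of the difference itself (edgeR's quasi-likelihood test of the interaction, adjusted p under 0.05), in 200 genes. Among the genes named in the report the interaction was positive on the log2 scale in Alb (8.66), Pzp (4.26), Gbp10 (2.74), Fabp1 (2.68), Fpr2 (2.31), Aoah (1.93), Gpr141 (1.86), Fcgr1 (1.81), Slfn8 (1.61), Emr1 (1.61), Cd200r4 (1.58), Cubn (1.55), Klra2 (1.55), Gt(ROSA)26Sor (1.53), Clec12a (1.46), Edem1 (0.64), Gbp3 (1.07), Npas2 (1.12), Mup3 (9.41), Fga (5.18), Cps1 (12.03), Pdgfrl (1.18), Iqgap2 (0.62) and Pttg1 (0.86). It was negative in Lgals2 (-2.28), Mmp12 (-2.08), Map3k6 (-1.63), Dbp (-1.61), P2rx1 (-1.59), Myrip (-1.56), Klhl29 (-1.52), Clec1b (-1.43), Atp6v0a4 (-1.38), Nr1d1 (-1.34), Retnlg (-1.31), Igfbp6 (-1.28), Rspo1 (-1.12), Pxdc1 (-1.07), Fam57b (-1.04), Rhd (-2.12), Nos3 (-0.84), Lpar2 (-0.61) and Wdr92 (-0.92). The sizes given for Mup3 and Cps1 have no usable estimate, as each had a group at 0 counts.

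A single library stood far from the other 4 of its group in 12 of 182 groups of named genes (6.59%), where chance gives about 1 in 20 (Dixon's test with a critical value of 0.71). Knockout-labelled HDM 1 was low for genes known from liver: Alb was at 20.1 CPM, Mup3 at 2.29 CPM, Cps1 at 2.08 CPM and Pzp at 2.35 CPM, with medians of the other 4 libraries of 59.7, 7.08, 7.33 and 7.83 CPM. Knockout-labelled HDM 4 was high for Slfn8, at 27.3 CPM beside 15.8. Knockout-labelled HDM 5, which was rich in fat transcripts, was low for Rhd, at 0.216 CPM beside 0.712, and high for Wdr92, at 107 CPM beside 69.8. Knockout-labelled saline 2 was low for Gpr141, at 4.74 CPM beside 5.81. Wild type HDM 4 was low for Klra2, at 5.43 CPM beside 11.4, and wild type HDM 5 was low for Edem1, at 175 CPM beside 245. Wild type saline 2 was low for Fabp1, at 1.35 CPM beside 3.02, and high for Pdgfrl, at 6.68 CPM beside 4.03.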

How the results depend on the processing

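No interaction changed direction under any alternative, for the 200 called genes or the 43 named ones that were called, and the sign on the additive CPM scale was the same for all 200; what changed was how many passed. DESeq2 called 608 genes (459 positive, 149 negative, 198 of at least 2-fold). Without the 5 libraries rich in fat transcripts 103 were called (82 positive, 21 negative), a test against a 1.2-fold difference left 44 (33 positive, 11 negative, 36 of at least 2-fold), and an adjusted p under 0.01 left 32 (25 positive, 7 negative, 23 of at least 2-fold). Upper quartile scaling gave 58 negative calls beside 142 positive. When each library was left out in turn, the calls ranged from 79 to 260, the positive ones from 60 to 194, the negative ones from 19 to 66 and those of at least 2-fold from 38 to 112. All other alternatives, apart from the negative calls with the replicate block, were within 1.5 times of the reported counts. The cause of these shifts was not tested, apart from the fewer libraries or stricter rule that some of them use.

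Of the 43 named genes called, 17 were called in every alternative and 22 in every fit without 1 library. Leaving out knockout-labelled HDM 4 lost 21, and leaving out the libraries rich in fat transcripts lost 22, among them Gbp10 (2.57, adjusted p = 0.0535), Dbp (-1.65, 0.0928), Nr1d1 (-1.32, 0.0616), Npas2 (1.12, 0.0875) and Fga (4.26, 0.0928). The GC offset, chosen after seeing the data, lost 3. With the replicate block the calls were 246, of which 184 were positive and 62 negative, and 2 named genes were lost. The numbers in the titles did not pair the libraries: deviations from the group mean correlated between -0.50 and 0.60 over 30 same-numbered pairs, above 0.1 in 15, and 5 of 20 libraries correlated best with their own number. Genes at a few counts per group, such as most liver genes outside knockout-labelled HDM lungs, are limited by depth.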
